A study of Rattus norvegicus with 24 samples.

Results

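The regions described here are 51 stretches of the rat genome where INO80 peaks of saline-treated animals stood close together. They were chosen by the positions of the saline peaks on chromosomes 1 to 20 and X alone. Neighbouring saline peaks were chained where a peak began at most 10000 bp after the furthest end before it, and chains of 10 or more saline peaks were kept. The 51 stretches held 1250 of the 2298 saline peaks on these chromosomes (54.4%), of 2352 in the whole saline list. All cocaine peaks sharing at least 1 bp with a stretch were added as members, 1356 of the 71280 cocaine peaks on these chromosomes (1.90%), of 71723 in the whole list. The stretches summed to 1.38 Mb, or 0.0692% of the genome size given to the peak caller. Since the crowding of saline peaks was what selected the stretches, the number of saline peaks in them is not a result, and no comparison of members with other peaks was tested.

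INO80 is the ATPase that drives a large chromatin remodelling complex. The complex slides nucleosomes, has been linked to histone exchange, and takes part in transcription, replication and DNA repair. The nucleus accumbens lies in the ventral striatum, receives dopamine from the midbrain and is central to drug seeking. In chromatin immunoprecipitation followed by sequencing (ChIP-seq), a peak is a place where fragments pulled down with an antibody pile up beyond the level set by input DNA, the same sonicated chromatin sequenced without the antibody. Sequence that occurs in many copies, or that the assembly holds in fewer copies than the genome, can gather deep coverage in input and ChIP alike.

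The study profiled INO80 in nucleus accumbens tissue of rats. Per the labels, rats had self-administered cocaine and tissue was taken 30 days after extended access. That protocol text is attached to the saline samples as well. The 24 libraries form 4 groups of 6, which are INO80 ChIP and input of the cocaine treatment and INO80 ChIP and input of the saline treatment. Each group has 3 numbered samples with 2 runs each, and 7.5 µg of antibody went into each immunoprecipitation. The sources used here do not give strain, age or whether a numbered sample is 1 animal. The tissue is bulk, so the cell types behind a peak are unknown.

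For each treatment the authors pooled its 3 ChIP samples and its 3 inputs before peak calling, so there is 1 peak list per treatment, no replicate error and no test between treatments. After filtering, the ChIP pools held 37905014 saline and 43489910 cocaine tags, and the input pools 100697179 and 101490635. All pileups and folds below are the authors' caller's own values within a list, and values of the lists set side by side are not a measure of change. Confidence intervals are Wilson 95% intervals and cover counting error only.

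Crowded saline peaks were found on 16 of the chromosomes examined and were unevenly spread. Chromosome 1 carried 21 stretches with 635 saline peaks (50.8% of the saline members) and 698 cocaine peaks. Chromosome 13 carried 6 stretches with 110 saline and 115 cocaine peaks, and chromosome 14 carried 2 stretches with 116 and 122. Without chromosome 1, 30 stretches with 615 saline and 658 cocaine peaks remained. No stretch was found on 5 chromosomes, namely 8, 9, 10, 11 and 15. Stretches also lay near each other. Joining stretches at most 1 Mb apart gave 26 loci, and 35 of the 51 stretches fell into 10 loci of 2 or more.

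The locus with most stretches was chr1:180491724-182013146, which holds 11 stretches over 1.52 Mb. Its stretches contained 326 saline peaks (26.1% of the saline members) and 328 cocaine peaks, so the numbers in the lists were nearly equal. Another 4 stretches lay within 837 kb at chr1:55194530-56031873, with 166 saline and 225 cocaine peaks. All 6 stretches of chromosome 13 lay within 290 kb at chr13:33474045-33763818. Both chromosome 14 stretches lay within 165 kb at chr14:46522434-46687914. Genes and repeat annotation at these places were not analysed here, because the gene table at hand is of another assembly.

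Every stretch contained peaks of both lists, and most held similar numbers of each. Saline peaks per stretch ranged from 10 to 79 with a median of 20, and cocaine peaks from 10 to 82 with a median of 21. Cocaine peaks were more numerous in 29 stretches, equal in 8 and fewer in 14. In 41 stretches the cocaine number was within 20% of the saline number. Over the 51 stretches the counts had a Pearson r of 0.967 and a Spearman rho of 0.925, given as a description, since longer stretches offer more room to peaks of either list. Spans ran from 3.32 to 99.1 kb with a median of 17.7 kb. Neighbouring saline summits were 476 bp apart at the median and cocaine summits 430 bp, and 74.3% and 77.6% of these distances were under 1 kb. Peaks covered a median of 11.7% of a stretch in the saline list, from 2.89% to 41.7%, and 15.5% in the cocaine list, from 3.96% to 48.3%. The counts depended on how finely the caller had split the signal: joining peaks under 500 bp apart before chaining left 17 stretches with 307 saline and 296 cocaine peaks.

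**Figure D1:**
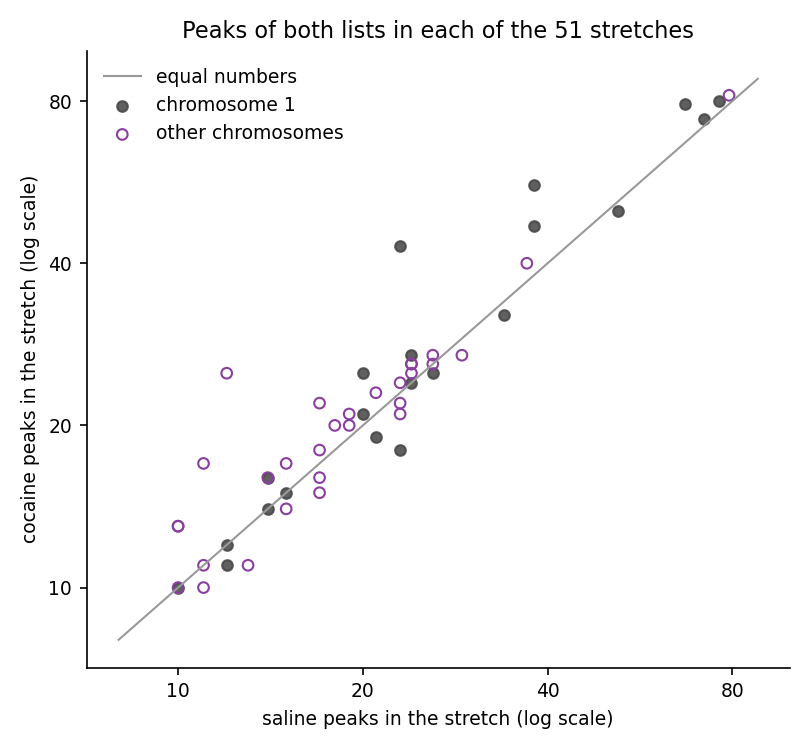
Number of saline peaks (x axis, log scale) and cocaine peaks (y axis, log scale) in each of the 51 stretches, with the line of equal numbers. Most points lie near the line, and those furthest above it are the stretches with 12 and 25, 23 and 43, and 11 and 17 saline and cocaine peaks.

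The 4 stretches with most saline peaks held 294 of the 1250 (23.5%). The largest was chr14:46593272-46687914, with 79 saline and 82 cocaine peaks in 94.6 kb. The longest was chr1:180875410-180974482, with 76 saline and 80 cocaine peaks in 99.1 kb. The stretch chr1:11903590-11973015 had 72 saline and 74 cocaine peaks in 69.4 kb, and chr1:55693270-55758016 had 67 and 79. In these 4 the lists differed by at most 12 peaks. Next came chr1:181166506-181230635 with 52 saline and 50 cocaine peaks, and then a pair of stretches with 38 saline peaks each. The first of that pair, chr1:55194530-55238206, had 47 cocaine peaks, and the other, chr1:55636591-55674552, had 56. The 10 stretches with most saline peaks are completed by chr14:46522434-46566862 with 37 saline and 40 cocaine peaks, chr1:181943092-181995066 with 34 and 32, and chr12:3340376-3357570 with 29 and 27.

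The shortest stretches also held similar numbers in both lists. The shortest, chr1:116750114-116753433, packed 10 saline and 10 cocaine peaks into 3.32 kb. The next shortest were chr1:182008768-182013146, with 12 saline and 11 cocaine peaks in 4.38 kb, and chr2:158848491-158853301, with 10 of each in 4.81 kb. In the last of these every peak of either list shared bases with a peak of the other.

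Only 3 stretches had more than 1.5 cocaine peaks for each saline peak. The stretch chr16:22055042-22088452 had 12 saline and 25 cocaine peaks, a ratio of 2.08. The stretch chr1:55989846-56031873 had 23 and 43, a ratio of 1.87, and chr17:89387654-89414971 had 11 and 17, a ratio of 1.55. Their median saline pileups, 47, 56 and 49, were below the median of 67 over all saline members. Their median saline folds, 2.37, 2.35 and 2.45, were also below the 2.88 of all saline members. At the other end, chr1:181000778-181042719 had 23 saline and 18 cocaine peaks, chr7:22323350-22342408 had 13 and 11, and chr18:38413281-38421231 had 17 and 15.

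Deep input was shared by all stretches. The local background is the input level the caller set against each peak, scaled to ChIP depth, and is given here as a multiple of the genome-wide level. Its median was 22.5 times the genome-wide level at saline members and 22.6 times at cocaine members. A background of at least 10 times the genome-wide level, called high here, was found at 1232 of 1250 saline members (98.6%) and 1327 of 1356 cocaine members (97.9%). Over all peaks on these chromosomes, it was found at 1858 of 2298 saline and 2455 of 71280 cocaine peaks. In chains of 5 to 9 saline peaks, 94.9% of the peaks had it, so it was not particular to the stretches. The median background of every stretch lay above that limit in both lists, from 18.3 to 29.4 for saline and from 18.2 to 30.3 for cocaine. It was highest at chr20:27461730-27475230, with 29.4 for saline and 30.3 for cocaine, followed by chr3:133555820-133568505 with 29.0 and chr6:31049867-31066422 with 27.9 in the saline list. It was lowest at chr13:33755951-33763818, with 18.3, then at chr1:180557984-180601216 with 18.7 and chr1:99071031-99085263 with 19.1. Which stretches had the deeper background was similar in the lists, with a Pearson r of 0.830 over the 51 stretches. The lists share neither ChIP nor input libraries, but share the genome and its alignment.

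As counted after filtering, ChIP and input fragments were nearly equally deep at the members. The pileup, the number of ChIP fragments over the summit, had a median of 67 at saline members, from 19 to 104, and of 70 at cocaine members, from 21 to 108. The input fragments behind the local background, before scaling to ChIP depth, had medians of 59.0 and 62.0. The ratio of pileup to unscaled input had a median of 1.12 for saline and 1.11 for cocaine. Input was deeper than the ChIP pileup at 31.7% of saline and 31.0% of cocaine members. Peaks of high background outside the stretches had similar shares, 36.7% for saline and 31.3% for cocaine. The input pools were 2.66 times as deep as the ChIP pool for saline and 2.33 times for cocaine, so a peak with equal ChIP and input stacks has a fold close to those values. For 95.2% of the saline and 95.5% of the cocaine members, the local background was set by the smallest window, 1 fragment long at the peak itself, since the unscaled input came out as a whole number within 0.002. At peaks outside the stretches this held for 74.0% of the saline and 54.2% of the cocaine peaks, but for 98.6% and 97.4% of those outside with a high background.

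**Figure D2:**
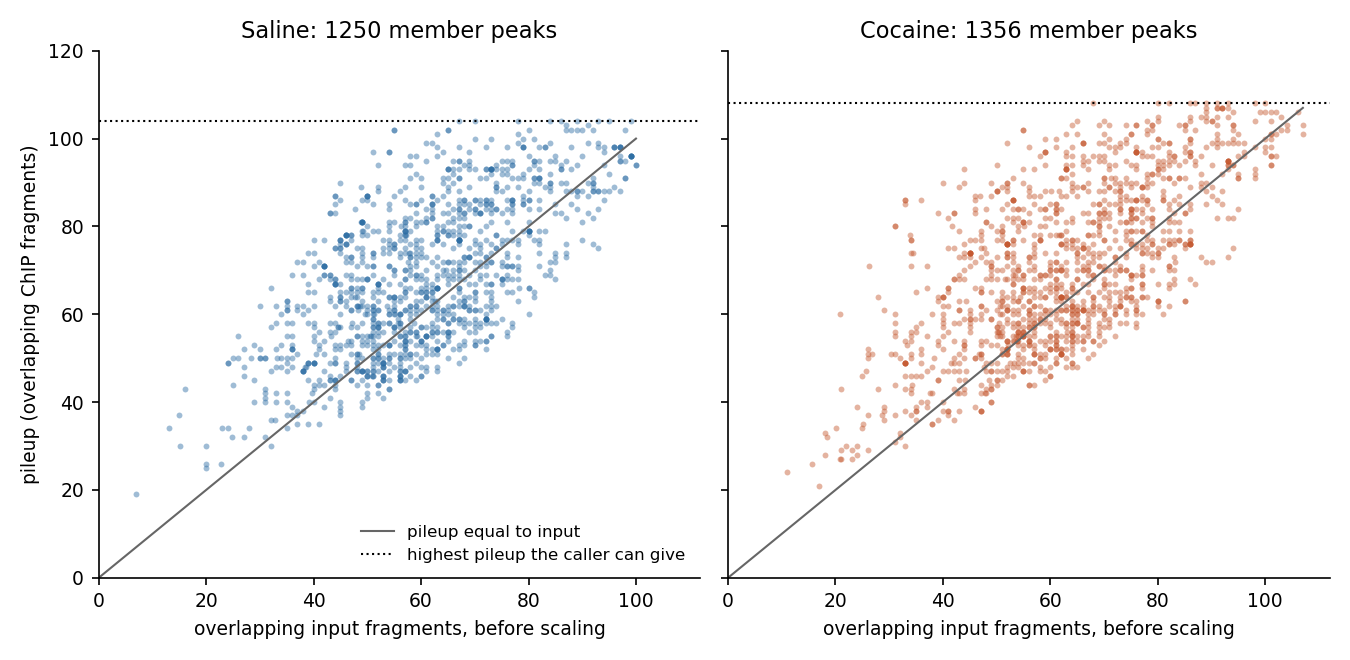
Pileup of ChIP fragments at the summit (y axis) against the unscaled number of input fragments in the local background (x axis) for the 1250 saline members and the 1356 cocaine members. Most points lie near or above the line of equal stacks, with 31.7% and 31.0% below it, and pileups end at the dotted ceilings of 104 and 108.

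The caller kept 1 tag per position and strand, so a pileup could not exceed 2 fragment lengths, which is 104 for saline and 108 for cocaine. This ceiling was reached by 9 saline members in 3 stretches and 10 cocaine members in 8 stretches. Within chr1:180800855-180816563, 4 of the 5 saline peaks between 180808326 and 180809613 and 3 cocaine peaks over the same bases were at it. The 9 saline peaks at the ceiling all shared bases with cocaine peaks, as did the 10 cocaine peaks with saline peaks. The true depth of these peaks is not known above the ceiling. Unscaled input ended at the same values, with a highest of 104 at saline and 108 at cocaine peaks outside the stretches. At members its highest values were 100 and 107. Whether deep input, and with it the background multiples, is understated for this reason was not tested.

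Folds were low and narrowly spread. The fold, pileup plus 1 over local background plus 1, had a median of 2.88 in the saline list, from 1.89 to 6.27, and of 2.54 in the cocaine list, from 1.70 to 6.12. Per stretch, the median saline fold ran from 2.24 to 4.16 and the median cocaine fold from 1.96 to 3.38. It was highest at chr2:160685470-160695640, with 4.16 for saline and 3.38 for cocaine. There the median pileups of 92 and 96 stood over 58 and 63.5 input fragments. The stretches chr2:158848491-158853301, with 3.81 and 3.29, and chr7:22323350-22342408, with 3.67 and 3.08, came next. The median saline fold was lowest at chr17:89436497-89463896, where it was 2.24 and the cocaine median 2.03, followed by chr1:55636591-55674552 and chr1:55693270-55758016, both with 2.33 in the saline list. The median cocaine fold was lowest at chr20:27461730-27475230, with 1.96, where the saline median was 2.36. At the chromosome 17 stretch, 47 saline and 49 cocaine ChIP fragments stood beside 53 and 56 input fragments.

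In some loci the stretches had similar folds, and in others they did not. In the 11 stretches of chr1:180491724-182013146 the median saline fold lay between 2.81 and 3.57, and in the 4 of chr1:55194530-56031873 between 2.33 and 2.51, so these ranges did not overlap. The 6 stretches of chromosome 13 lay between 3.06 and 3.41, and the pair at chr17:89387654-89463896 between 2.24 and 2.45. By contrast, the pair at chr2:160685470-160891689 had median saline folds of 4.16 and 2.41, nearly the full saline range over all stretches. Its median cocaine folds were 3.38 and 2.38, where the range over all stretches was 1.96 to 3.38. The cocaine list gave the same separation between the chromosome 1 loci, with 2.51 to 3.02 and 2.10 to 2.23. Over the 51 stretches, median folds of the lists had a Pearson r of 0.907, and the order of stretches was alike in both. The saline median was above the cocaine median in 50 stretches, but the scaling of input to ChIP depth differs between the lists. Set against the fold that equal stacks would give in each list, the median fold was above it in 36 stretches in both lists and at or below it in 14 in both.

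**Figure D3:**
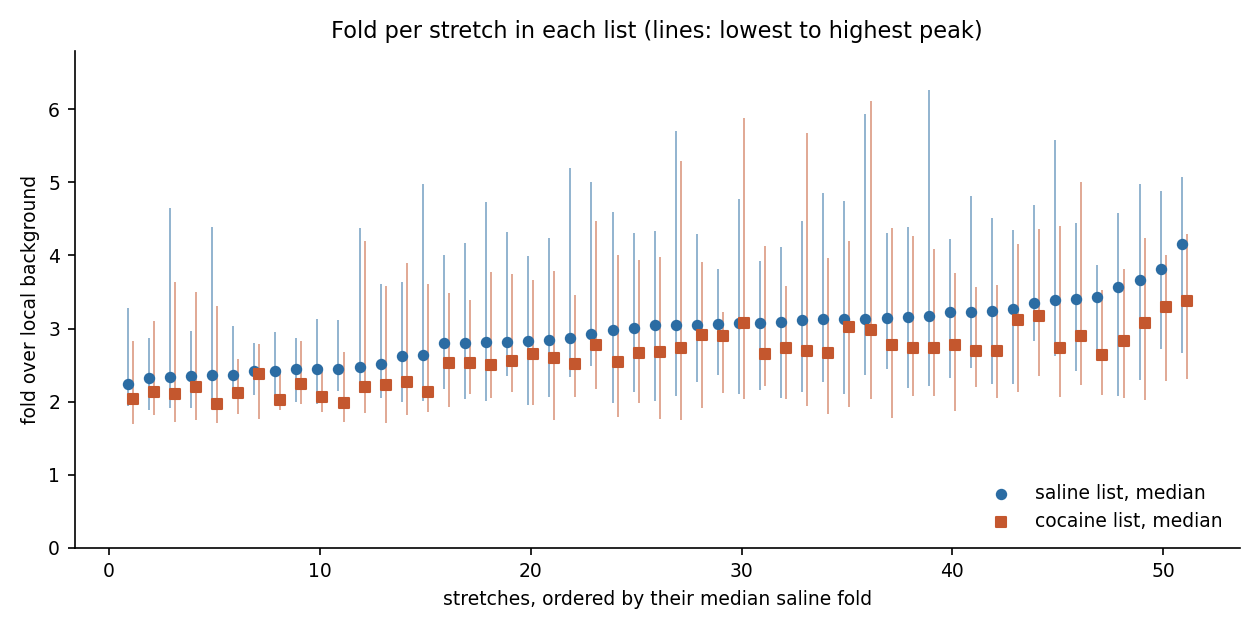
Fold over local background (y axis) in the 51 stretches, ordered on the x axis by their median saline fold. Dots and squares are the medians of the saline and cocaine lists, and lines run from the lowest to the highest peak. Saline medians run from 2.24 to 4.16 and cocaine medians from 1.96 to 3.38.

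Most member peaks had a counterpart in the other list at the same bases. A cocaine peak shared at least 1 bp with 1084 of the 1250 saline members (86.7%, interval 84.7 to 88.5), against 79.8% of all saline peaks on these chromosomes. In the other direction, 1043 of the 1356 cocaine members shared bases with a saline peak (76.9%, 74.6 to 79.1), against 2.47% of all cocaine peaks. The low value for all cocaine peaks follows from the length of the cocaine list, and the cocaine members were chosen for lying among saline peaks, so the contrast is not read as a result. Outside the stretches, saline peaks of high background had a cocaine counterpart in 68.1% of 626 cases, and cocaine peaks of high background had a saline counterpart in 42.3% of 1128. Counting counterparts with edges within 1 kb raised the shares in the stretches to 97.8% and 97.4%. Since 74.3% of neighbouring saline and 77.6% of neighbouring cocaine summits there were under 1 kb apart, this rise follows largely from the crowding. Counterparts were mostly single, with 1055 saline members meeting 1 cocaine peak, 29 meeting more, 978 cocaine members meeting 1 saline peak and 65 meeting more.

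The summits of overlapping peaks nearly coincided. Among 1115 overlapping pairs in the stretches the summits were 5 bp apart at the median, 667 pairs (59.8%) were within 10 bp, and 142 had the same summit. Pairs outside the stretches with high background in both lists, 428 in number, had a median distance of 4 bp. The 233 pairs outside with ordinary background in both lists, under 3 times the genome-wide level, had a median of 47 bp. Cocaine pileups at paired peaks were 1.06 times the saline pileups at the median, with quartiles of 1.01 and 1.14. The unscaled input moved by the same ratio, 1.06, with quartiles of 1 and 1.14. For comparison, ChIP depth times fragment length was 1.19 times as high in the cocaine pool, and for input that ratio was 1.05. With 1 tag kept per position and strand, deep pileups need not grow in proportion to depth, so 1.19 is not an expected value. Pairs of high background outside the stretches had a pileup ratio of 1.05, and pairs of ordinary background had 1.5.

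Members without a counterpart were the shorter and shallower ones. The difference in length follows in part from the definition, since a longer peak has more room to share a base with a counterpart. The 166 saline members without one had a median length of 66 bp and a median pileup of 52, against 108 bp and 70 for those with one. The 313 cocaine members without one had 78 bp and 54, against 123 bp and 76. Folds differed less, with 2.78 against 2.89 for saline and 2.44 against 2.57 for cocaine. All saline peaks had a counterpart in 11 stretches and all cocaine peaks in 9. Both held in 2 stretches, chr2:158848491-158853301 and chr13:33617781-33630723. The share of saline members with a counterpart was lowest at chr17:89436497-89463896, with 52.2% of 23 peaks, the stretch that also had the lowest median saline fold. The share of cocaine members was lowest at chr16:22055042-22088452, with 36.0% of 25 peaks. Over the stretches, the share of saline peaks with a counterpart and the median saline pileup had a Pearson r of 0.639 and a Spearman rho of 0.564.

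The loci differed in this share. Over the 51 stretches, the share of saline peaks with a counterpart and the median saline fold had a Pearson r of 0.487 and a Spearman rho of 0.444. At chr1:180491724-182013146, 84.7% of saline and 81.4% of cocaine members had a counterpart, and at the chromosome 13 locus 90.0% and 83.5% did. At chr1:55194530-56031873 the shares were 78.3% and 57.3%, and at chr17:89387654-89463896 they were 58.8% and 51.2%. The last pair of loci also had low folds, as given above. Other loci of low fold had high shares of saline members with a counterpart. At chr19:5820928-5836368 the median saline fold was 2.47 and the share 100%, and at chr1:116750114-116753433 they were 2.45 and 90%. In the largest stretch the peaks of both lists stood in groups separated by gaps. There 88.6% of the 79 saline and 76.8% of the 82 cocaine peaks had a counterpart. The summits of its 71 overlapping pairs were 11 bp apart at the median, and 47.9% were within 10 bp.

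**Figure D4:**
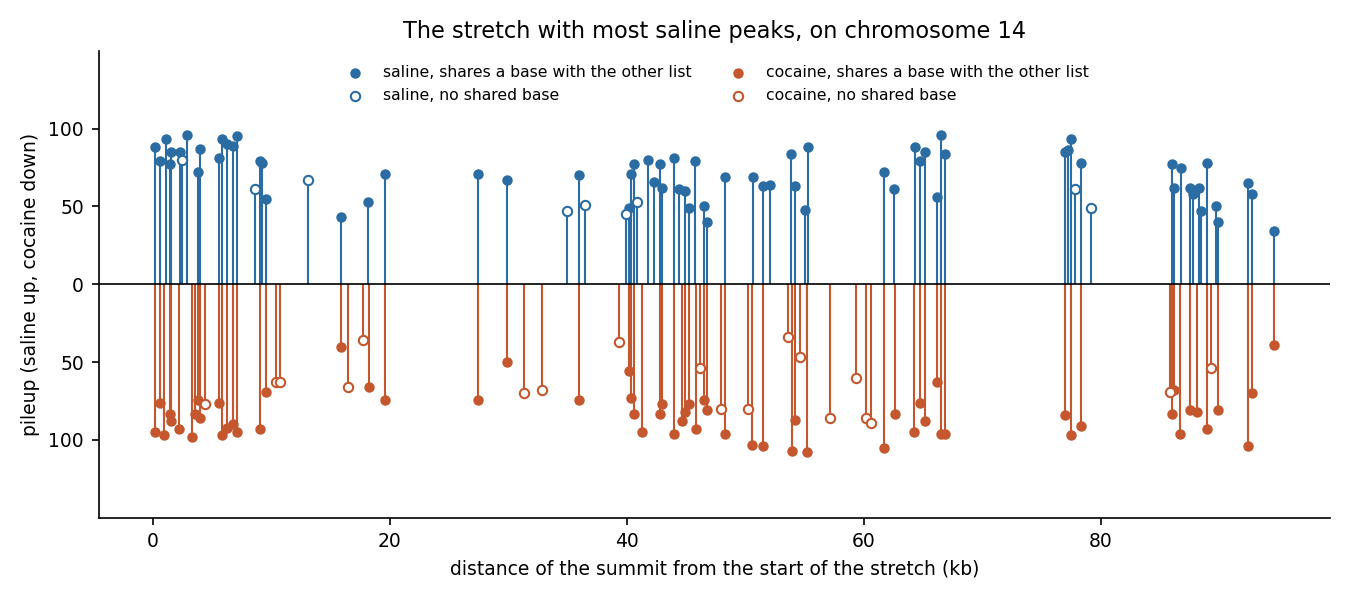
The largest stretch, 94.6 kb on chromosome 14. The x axis gives the distance of each summit from the start of the stretch in kb, and the y axis the pileup, with saline peaks upward and cocaine peaks downward. Filled points share bases with a peak of the other list (88.6% of 79 saline and 76.8% of 82 cocaine peaks), and open points do not.

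Some stretches on different chromosomes contained peaks with identical values at identical spacings. The following pattern was noticed in the values and is a description with no test. Pairs of peaks of 1 list were taken where pileup and unscaled input were equal, input to within 0.1 fragments, and where a second such pair in the same stretches lay at the same summit spacing to within 5 bp and no more than 5000 bp away. The saline list held 39 such pairs of peaks, made of 47 of its 1250 members, and the cocaine list held 47, made of 46 of its 1356 members. Of the 39 saline pairs 31 joined different chromosomes, and of the 47 cocaine pairs 37 did. Every combination of places was counted, so a value found at 5 places, as in the doublet described below, adds many pairs. The pair numbers therefore overstate how many separate values recurred. They gathered in 6 stretches, which are chr1:11903590-11973015, chr5:91125590-91137910, chr6:30618852-30646987, chr6:31049867-31066422, chr14:46522434-46566862 and chr14:46593272-46687914. Those 6 held both peaks of 35 saline and 43 cocaine pairs. Another 5 stretches also held such peaks, among them chr4:146538758-146551373, with 4 saline members paired within the stretch. In 40 of the 51 stretches no such peak was found in either list. Pairs of different stretches joined in this way numbered 13 over both lists, and 9 of them were joined in each list.

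The clearest case was a doublet found at 5 places in 4 stretches on chromosomes 1, 6 and 14. In the saline list a 56 bp peak with a pileup of 81 over 49 input fragments was followed 249 bp on by a peak with a pileup of 93 over 73 input fragments. It was found at chr1:11929287-11929342, chr6:31058337-31058392, chr6:31060700-31060755, chr14:46534343-46534398 and chr14:46598805-46598860, each time with the same length, fold of 4.22 and spacing to the next summit. In the cocaine list the same 5 places had a 54 bp peak with a pileup of 76 over 52 input fragments, followed 266 bp on by a peak of 97 over 76. The second peak varied in length, from 249 to 284 bp for saline and from 244 to 279 bp for cocaine. The places on chromosome 6 were 2363 bp apart and those on chromosome 14 were 64462 bp apart.

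The likeness went beyond the doublet at some places and ended at others. Upstream of it, chr1:11927890-11927949 and chr14:46532946-46533005 both had a saline pileup of 87 over 50 input fragments, 1393 bp before the doublet. At 949 bp before it, the saline pileup was 75 at both, over 55 and 54 input fragments. Downstream, the chromosome 14 place at 46534939 and the second chromosome 6 place at 31061281 both had 96 over 99, at 672 and 657 bp. The remaining chromosome 14 place, near 46599387, had 90 over 86 at 683 bp instead. In another case, the saline peaks chr5:91135936-91136060 and chr14:46647118-46647241 both had a pileup of 84 over 67 input fragments. Each was followed 302 bp on by a peak of 63 over 45. Such peaks were counted separately above, and whether they are separate observations was not tested. The names of the alignments in the file headers say that reads were unique and duplicates removed. How reads that match several places were treated is not stated further in the sources used here, and their part in these values was not tested.

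**Figure D5:**
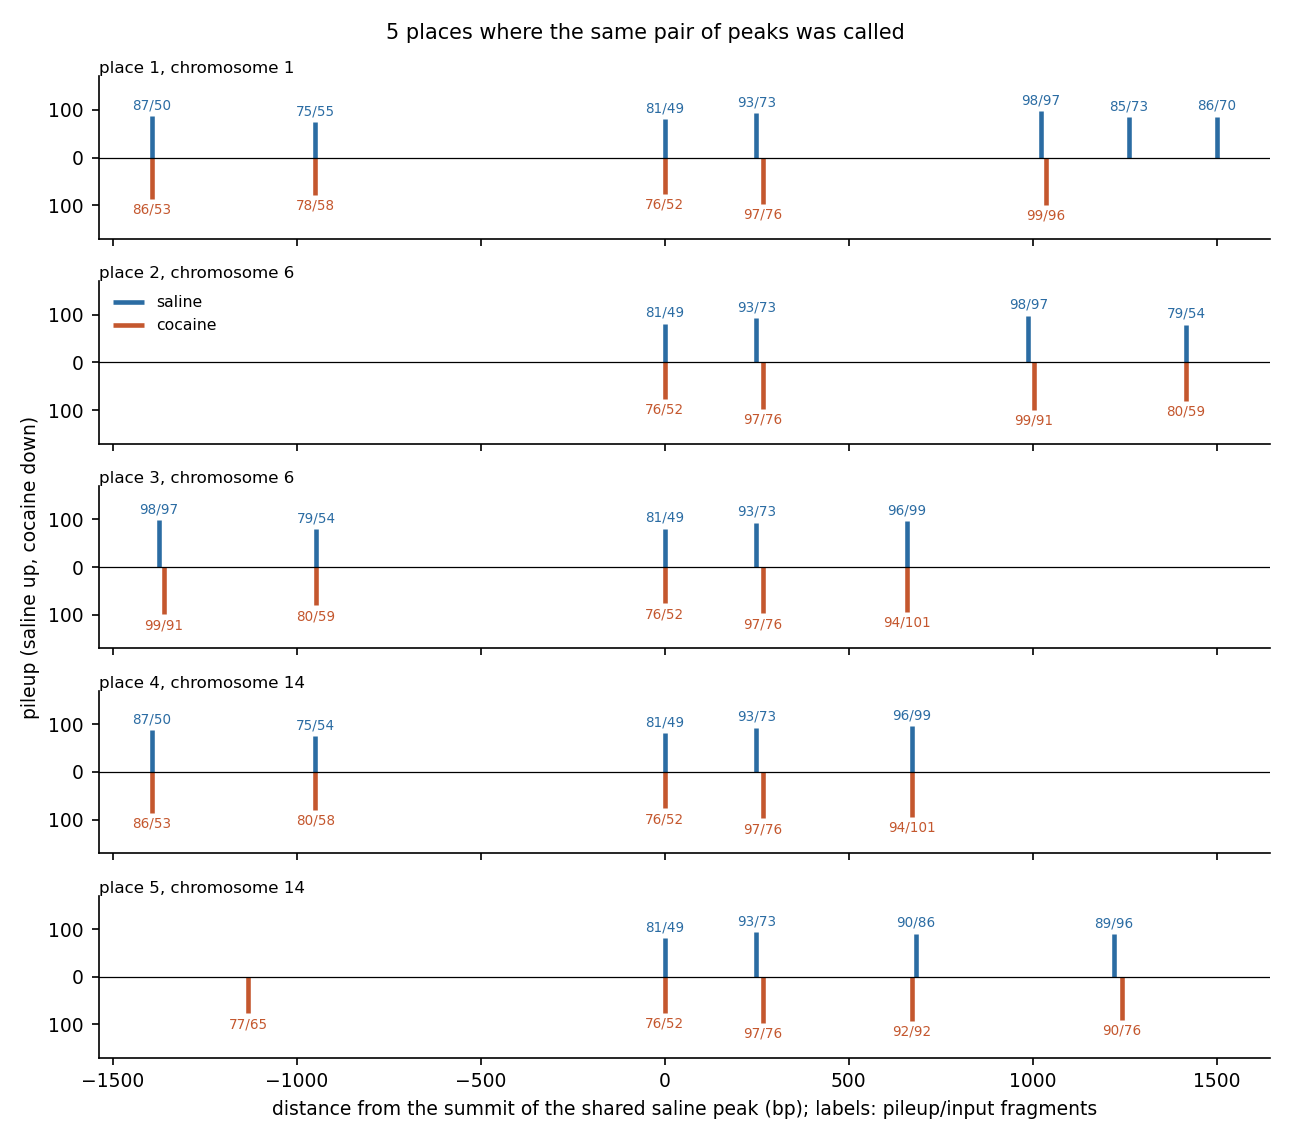
Member peaks within 1500 bp of the saline peak with a pileup of 81 over 49 input fragments at the 5 places where it was called. The x axis is the distance from its summit in bp and the y axis the pileup, saline upward and cocaine downward, with pileup and input fragments printed at each peak. The doublet, at 0 and 249 bp for saline and at 0 and 266 bp for cocaine, has the same values at all 5 places, and the peaks around it match at some of them.

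Of the 6 stretches in which shared values gathered, 4 were among the 5 where cocaine pileups at paired peaks exceeded saline ones most. Per stretch, the median ratio of cocaine to saline pileup at paired peaks ran from 0.951 to 1.30 with a median of 1.06, and the ratio of unscaled input ran from 0.929 to 1.24. The highest was at chr5:91125590-91137910, where 17 pairs had a pileup ratio of 1.30 and an input ratio of 1.24. At chr6:30618852-30646987 these were 1.26 and 1.17, at chr1:11903590-11973015 1.17 and 1.11, and at chr14:46593272-46687914 1.15 and 1.08. The other of the 5 was chr1:99041336-99059462, with 1.17 and 1.09. The rest of the 6 had ratios near the median, 1.04 and 1.04 at chr6:31049867-31066422 and 1.06 and 1.07 at chr14:46522434-46566862. Stretches outside the 6 that also held shared values had pileup ratios from 0.951 to 1.10. In 49 of the 51 stretches the pileup ratio was above 1, and in 50 the input ratio was. In 2 the pileup ratio was above 1.19, the ratio in ChIP depth times fragment length, which deep pileups need not follow.

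The same stretches held wide cocaine peaks at the ceiling. Peaks at the ceiling with lengths of 961 to 1048 bp lay in chr1:11903590-11973015, chr5:91125590-91137910, chr6:30618852-30646987 and both chromosome 14 stretches. At the first of these, the cocaine peak chr1:11903570-11904603 had a pileup of 108 over 89 input fragments, and the saline peak inside it had 89 over 57. At chr6:30632814-30633844 the cocaine peak had 108 over 91 and the saline peak 89 over 52. At chr14:46522373-46523333 they had 108 over 93.0 and 84 over 47.8. At chr5:91136887-91137930 the cocaine peak had 108 over 86.0 and its saline counterpart 86 over 68. At chr14:46648070-46649117 the cocaine peak had 108 over 82 and met 2 saline peaks, which had 48 over 38.6 and 88 over 75. Compared with each saline peak it met, both the pileup and the input of the cocaine peak were higher in these 5 cases. The higher pileup was fixed by the choice of cocaine peaks at 108, since no saline pileup can exceed 104, and is not a result. The longest peak of any stretch was also here, a cocaine peak of 3491 bp at chr1:11909696-11913186 that met 5 saline peaks, among them the longest saline member, 1414 bp at chr1:11911747-11913160.

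Saline peaks of highest fold had backgrounds well below the median of 22.5. With pileups limited to 104, folds this high can only arise below that median, so this follows in part from how fold is computed. In the saline list the highest fold, 6.27, was at chr13:33539870-33539923, with a pileup of 43, a background of 6.11 times the genome-wide level and no cocaine peak. It was followed by chr14:46687863-46687914 with 5.94 and a background of 4.97, and chr1:11971733-11971840 with 5.70 and a background of 5.75. The fourth, chr1:180517014-180517130 with a fold of 5.58, had a pileup of 19 and a background of 2.62, making it the only member of ordinary background in either list. The next were chr1:181040996-181041047 with 5.19 and chr1:11961982-11962128 with 5.14. Of these 6 saline peaks, 3 had a cocaine counterpart.

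None of the 6 cocaine peaks of highest fold shared bases with a saline peak. The highest was chr14:46652565-46652632, with a fold of 6.12 and a pileup of 60, followed by chr6:30641236-30641304 with 5.88 and a pileup of 71. The others lay in the chromosome 14 stretches. The peaks chr14:46650395-46650538 and chr14:46653460-46653527 had the same pileup of 86 over 33 input fragments and the same fold of 5.75. They were followed by chr14:46524015-46524208 with 5.68 and chr14:46641146-46641212 with 5.67. Thus all 6 lay in 3 of the stretches that share values with others.

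Chains on either side of the threshold of 10 saline peaks had similar values. Just outside it, 12 chains of 8 or 9 saline peaks held 103 peaks with a median fold of 3.01 and a background of 23.3 times the genome-wide level, and 93.2% of them met a cocaine peak. Just inside it, 7 chains of 10 or 11 held 73 peaks with 2.94, 21.8 and 91.8%. Chains of 2 to 9 saline peaks in all held 590 peaks with a median fold of 2.98 and a background of 19.1. The 458 solitary saline peaks, with no other saline peak in reach, had a median fold of 5.04 and a background of 1.15. These values come from the contrast that set the members apart and are given as a description.

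Deep input and both kinds of peaks went on beyond the ends of the stretches. From 10 to 50 kb outside them lay 142 saline peaks, of which 97.9% had a high background, and 217 cocaine peaks, of which 90.3% did. Within 10 kb, where the rule allows no saline peak, lay 65 cocaine peaks, of which 84.6% had a high background. Along the stretches the median saline background varied little, from 21.8 to 23.7 over 5 equal parts of the span. The stretches held 66.3% of all saline and 54.1% of all cocaine peaks of high background.

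High-background cocaine peaks were also crowded at places without a stretch. Chained alone by the same gap and number, they gave 61 chains of 1565 peaks, of which 49 shared bases with a stretch, and these met all 51. The other 12 cocaine chains held 1 to 9 saline peaks each. Of those, 3 lay between 21722490 and 21952629 on chromosome 16, the chromosome of the stretch with the highest cocaine-to-saline ratio. The pair at chr9:12344569-12359295 and chr9:12401505-12427563 lay on a chromosome with no stretch, and held 12 and 10 cocaine peaks beside 5 and 1 saline peaks.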

How the data were processed

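INO80 ChIP and input libraries of cocaine and saline samples were grouped by their titles. Peak calling by the authors used MACS (2.0.10.20131216), per the file headers, at a q cutoff of 0.05, with 1 tag kept per position, local windows of 1000 and 10000 bp and fragment lengths of 52 bp (saline) and 54 bp (cocaine). Per the submitters' processing notes the genome build is rn6. The sources used here name no aligner. The deposited pileup is a signal, the fold a ratio, and p and q are deposited as −log10 values. Recomputed −log10 p-values differed from the deposited ones by at most 5.7e-05. Only pooled depths were used.

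From these values the local background was computed as (pileup + 1)/fold − 1, divided by the genome-wide background (0.986 saline, 1.17 cocaine) or by the input scaling (0.376 and 0.429). Overlap meant 1 shared bp. The members and lists were chosen with earlier results of these data known. Named stretches are the 10 with most saline peaks, the 3 highest and 3 lowest by cocaine peaks per saline peak, by median saline fold and background and by span, and per list the 6 peaks with the highest folds. The stretches with shared values, ratios at paired peaks, wide and ceiling peaks, shares by locus, the cocaine chains named and the exclusion of chromosome 1 were chosen after seeing the data. No test was run. Chaining, overlap, background and the search for shared values were tested on simulated data. Alternatives were other gaps, minimum numbers, overlaps, joining and a stricter q. Python 3.11.15, numpy 2.4.6, pandas 2.3.3 and matplotlib 3.10.9 were used. Genes, promoters and sequences were not analysed here, since the reference tables at hand are of GRCr8.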

Additional observations from a re-analysis of the deposited data

How the results depend on the processing

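No paired analysis was possible because each treatment has 1 pooled peak list and no result comes from a test, and no library could be left out. Of 77 recomputed values, 62 kept the main value, meaning counts within 1.5 times, shares within the main Wilson interval and medians within 1 SD of the medians per stretch. Both median folds and both median backgrounds stayed within that limit in all alternatives run. Joining peaks under 500 bp apart before chaining left 17 stretches with 307 saline and 296 cocaine peaks, of which 83.8% of the cocaine peaks had a saline counterpart. Leaving out chromosome 1, an alternative added after seeing the data, left 30 stretches with 615 saline and 658 cocaine peaks, and 90.2% and 81.3% had a counterpart. Over all members, chromosome 1 included, the main shares were 86.7% of saline and 76.9% of cocaine peaks. Asking for 50% reciprocal overlap lowered these main shares to 70.8% and 65.3%, and edges within 1000 bp raised them to 97.8% and 97.4%. Because neighbouring peaks mostly stood closer than 1000 bp, the latter rise follows largely from the crowding. With a chaining gap of 5000 bp the share of cocaine members with a counterpart was 80.4%, and with 20000 bp it was 73.0%. Pileups at the ceiling understate depth, and depth per animal is unknown.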
